A study of Homo sapiens with 8 samples.

Results

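The genes examined here are the human genes of greatest length on the array, those whose probe sets span at least 500000 bases from the lowest start to the highest stop. Members were taken by that rule from probe sets with 1 gene symbol whose gene lay on 1 chromosome and 1 strand, and 1 gene was left out by the rule. This gave 240 genes with 6842 probe sets, of 17698 genes on 1 chromosome and strand and of 287329 probe sets in the series. Each probe set reads 1 exon, or a stretch of it, through a few probes. Positions are printed as deposited, with a genome build not given in the sources used here.

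The study hybridised total RNA of HEK293 cells, an established line from human embryonic kidney, to 8 Affymetrix exon arrays, 2 per group. The groups were cells labelled shELL given 50 ng/mL EGF for 1 h, cells labelled shELL left unstimulated, control HEK293 cells given the same EGF, and control cells left unstimulated. Per the labels, the shELL cells carry a stable knockdown of ELL and the control cells are wild type, and whether the knockdown line is 1 clone was not stated. ELL is an elongation factor of RNA polymerase II, and EGF is a growth factor that acts through a receptor tyrosine kinase.

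RNA polymerase II copies a gene from its 5' end to its 3' end, so the far end of a very long gene is copied last. Genes of this size are mostly intron and code above all for proteins of synapses, cell adhesion, muscle and signalling. An hour after a stimulus, a transcript begun at the stimulus may have been copied at its 5' end and not yet at its 3' end, so values by position along such genes are a test of elongation. The arrays measured exon sequence in total RNA, in which older finished transcripts are also present.

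The arrays differed in quality, and ELL itself could not check the shELL label. Deposited array medians ran from 1.33 to 2.95 on the log2 scale and were brought to 1 distribution by quantile normalization. After it, the background of each array, read from 1225 probe sets of olfactory receptors as their 95th percentile, lay at 4.23 in array 1 of the shELL-labelled EGF group and between 2.25 and 3.47 in the other arrays. The median correlation of that array with the others was 0.814, against 0.905 to 0.949 for the others. ELL stood at 3.86 and 2.65 with EGF and at 2.93 and 2.63 without in the arrays labelled shELL, against 2.57 and 2.89 with EGF and 2.54 and 2.50 without in control arrays (gene values on the log2 scale). It was not lower under the label, but in 5 of the 8 arrays it lay under that array's own background, so the label was not checked by it. An array's own background is read from single probe sets and a gene value from several, so setting them side by side, here and below, is only a rough guide. EGR1, an immediate-early transcription factor and a check of the EGF label, read between 7.14 and 7.91 in the 4 EGF arrays and between 3.80 and 4.14 in the 4 unstimulated arrays. Of 10 markers of HEK293 cells, 8 lay above background (all but NEFM and PAX2), with array means between 3.86 and 4.22. Of the markers of other cell types, 3 of 7 measured for neurons, 1 of 8 for fibroblasts, 1 of 4 for muscle and 0 of 5 for blood lay above it, with array means between 1.56 and 2.87.

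The span rule also drew in genes whose span need not be 1 long transcription unit. In 50 genes (958 probe sets), at least 80% of the span was a single gap between neighbouring probe sets, or at least 2 other genes of the same strand lay inside the widest gap. AIDA, the widest by the rule at 144608950 bases, had 99.96% of that span in 1 gap, and PMCHL1, at 48538843 bases, had the same share. Some of these 50 carry a symbol used at several places in the genome, such as duplicated genes (SMN1, SMG1) and immunoglobulin segments (IGHG4), although NRG1, with 1 very long intron, was also among them at 80.7%. HS6ST3 (99.04%) and LRRTM4 (99.35%) were among them too, with 0 other genes of the same strand in their gaps. A dominant gap alone thus does not tell whether a gene is 1 long transcription unit. The remaining 190 genes (5884 probe sets) had a median span of 703170 bases, 38 spanned 1000000 bases or more, and each had between 4 and 179 probe sets with a median of 24. CNTNAP2, a neural adhesion protein, at 2304108 bases on chromosome 7 and DMD, the dystrophin gene, at 2219832 bases on chromosome X were the longest of them. Counts below are for all 240 genes by the rule unless the 190 genes are named. At the edge of the rule, ERC1 (501743 bases), HDAC9 (501434) and SPOCK3 (501127) lay just inside, and AFF2 (499757), PGCP (498100) and PPFIA2 (497371) just outside.

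Probe sequences were not used here, so the annotated promoters of 3 lead genes are shown instead: ADK, the gene without a dominant gap of highest gene value, and CDK14 and UTRN, which gave the smallest p-values under EGF for position along the gene and for gene value. They are RefSeq promoters of build GRCh38.p14, 250 bases before to 50 bases after the start, all on the plus strand, at chr10:74150971-74151270 for ADK, chr7:90709148-90709447 for CDK14 and chr6:144285085-144285384 for UTRN, with GC boxes (GGGCGG, either strand) in capitals.
ADK: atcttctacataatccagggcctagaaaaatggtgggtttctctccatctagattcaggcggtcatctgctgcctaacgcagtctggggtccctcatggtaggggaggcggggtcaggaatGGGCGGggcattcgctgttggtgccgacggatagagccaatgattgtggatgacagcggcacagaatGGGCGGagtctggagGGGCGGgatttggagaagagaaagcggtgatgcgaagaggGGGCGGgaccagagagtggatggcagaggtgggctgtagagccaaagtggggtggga
CDK14: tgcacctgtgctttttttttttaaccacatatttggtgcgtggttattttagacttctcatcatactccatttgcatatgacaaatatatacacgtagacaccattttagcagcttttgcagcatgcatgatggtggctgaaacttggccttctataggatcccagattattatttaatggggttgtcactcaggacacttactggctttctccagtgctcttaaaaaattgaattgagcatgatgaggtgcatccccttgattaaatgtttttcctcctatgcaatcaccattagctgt
UTRN: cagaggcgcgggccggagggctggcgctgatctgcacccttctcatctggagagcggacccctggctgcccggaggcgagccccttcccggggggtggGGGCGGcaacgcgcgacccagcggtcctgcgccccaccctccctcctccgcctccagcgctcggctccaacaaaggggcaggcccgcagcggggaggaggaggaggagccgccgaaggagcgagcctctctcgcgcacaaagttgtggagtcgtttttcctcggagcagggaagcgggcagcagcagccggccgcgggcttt
ADK held 4 GC boxes, UTRN 1 and CDK14 none, and their GC content was 58.0%, 72.3% and 38.7% in the same order. The other motifs searched on both strands were the TATA box TATAAA, the EGR1 motif GCGTGGGCG, the AP-1 motif TGANTCA and the cAMP response element TGACGTCA, and none of them was found in the 3 windows. A RefSeq start need not be the start next to the first probe sets of the array. Of 162 genes without a dominant gap that matched a promoter by symbol, 54.3% held a GC box, 5.56% a TATA box, 6.79% an AP-1 motif, 1.23% a cAMP response element and none an EGR1 motif. Over all 35116 RefSeq promoters the shares were 45.0%, 11.5%, 7.71%, 1.85% and 0.794%. Median GC content was 64.7% in the 162 promoters and 58.7% in all of them.

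Most exons of the long genes gave no signal above background in these cells. Of the 6842 probe sets, 1840 (26.9%) had a mean over the 8 arrays above 2.49, the olfactory receptor background, against 42.6% of all probe sets with 1 symbol. Of the 190 genes without a dominant gap, 169 had at least 1 such probe set, 21 had none, and 25 had at least as many above background as below it. The median share per gene was 18.2%. A gene value, the median polish of at least 3 probe sets, could be had for 226 of the 240 genes, of which 59 lay above the gene background of 2.62, and 35 of these had no dominant gap. The other 14 genes had too few probe sets past the filter on low values.

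Probe sets near the 5' end lay above background more often than those far from it. In the 190 genes, 236 of 547 probe sets (43.1%) within 50 kb of the 5' end were above background. The share was 23.7% of 177 from 50 to 100 kb, 26.1% of 395 from 100 to 200 kb, 24.1% of 415 from 200 to 300 kb, 22.2% of 1198 from 300 to 500 kb and 19.3% of 3152 beyond 500 kb. By each array's own background, the share within 50 kb ran from 21.0% in array 1 of the shELL-labelled EGF group to 46.1% in unstimulated control array 2, and in each of the 8 arrays it was higher than the share beyond 500 kb, which ran from 8.69% to 22.6%. Taken gene by gene, 104 genes had a higher share above background in the 5' part of their span than in the 3' part, when the span is cut into 3 equal parts, and 62 the reverse. The probe sets themselves are uneven, with 58.4% of them in the 3' part. These counts describe the array, where probe sets differ in affinity, and differences in transcript level along a gene cannot be read from them.

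Single genes differed widely in where their signal lay, some against that order and some with it. DMD, which links the cytoskeleton to the membrane in muscle and also gives short products from internal promoters in its 3' part, had 0 of 21 probe sets above background in its 5' part, 2 of 43 in the middle and 24 of 44 in the 3' part. Its first probe set above background lay 874.9 kb from the 5' end, and most of the 26 lay at 2073 kb or beyond. By each array's own background, DMD had 11 and 23 probe sets of the 3' part above it in shELL-labelled EGF arrays, 16 and 23 in unstimulated shELL-labelled arrays, 22 and 17 in control EGF arrays and 22 and 24 in unstimulated control arrays. In the 5' part the count never exceeded 2 in any array. Signal at the 3' part and almost none at the 5' part was thus seen in all 4 groups.

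UTRN, the gene of utrophin, the dystrophin relative made in most cells, had 9 of 25, 8 of 27 and 19 of 26 probe sets above background in its 5', middle and 3' part. ROBO1, an axon guidance receptor, had 0 of 1, 9 of 10 and 24 of 30, the first of them 570.6 kb from the 5' end. PTPRD, a receptor tyrosine phosphatase, had 0 of 1, 3 of 4 and 21 of 35, and FOXP1, a forkhead transcription factor, had 2 of 4, 2 of 4 and 17 of 21. With the order, EXOC4, a subunit of the exocyst, had 10 of 11, 0 of 1 and 7 of 16, and ERC1, a scaffold of vesicle release sites, had 12 of 15, 5 of 9 and 7 of 14. PARD3B, a polarity scaffold, had 4 of 6, 0 of 15 and 0 of 9. ATRNL1, an attractin-like membrane protein, had 12 of 27, 0 of 7 and 1 of 6.

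**Figure D1:**
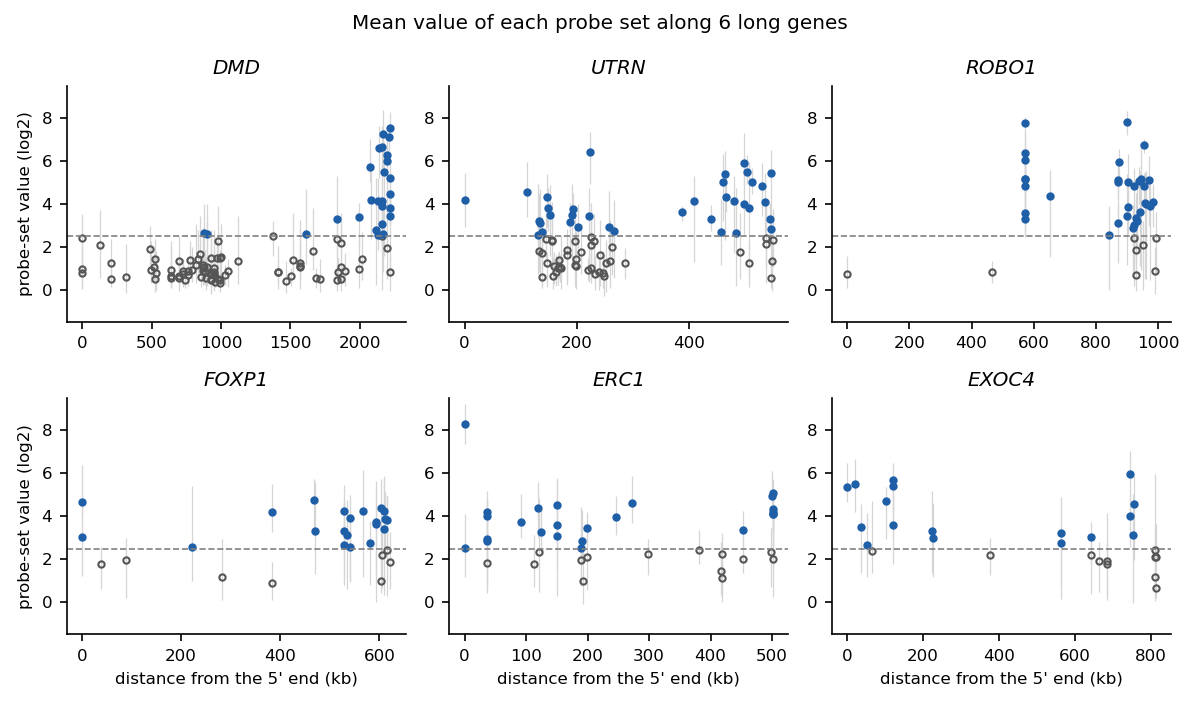
Mean log2 value over the 8 arrays of each probe set (vertical axis) against its distance in kb from the 5' end (horizontal axis) in 6 genes. Filled points lie above the olfactory receptor background (dashed line at 2.49), open points below it, and grey lines run from the lowest to the highest array. In DMD 24 of 44 probe sets of the 3' part are filled and 0 of 21 of the 5' part.

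The highest gene values among genes with a positional slope belonged largely to genes with a dominant gap. Of the 15 highest, 12 had one, led by PI4KAP2 at 5.91, RGPD3 at 5.75 and STAG3L2 at 5.59, whose symbols have near-identical copies. Whether the probes tell such copies apart was not tested. The 3 without a dominant gap were ADK at 4.64, CDKAL1 at 4.53 and TMEM117 at 3.76. ADK makes adenosine kinase, and CDKAL1 modifies a transfer RNA.

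ADK read 3.73 and 5.13 in shELL-labelled EGF arrays, 4.38 and 4.96 in unstimulated shELL-labelled arrays, 4.62 and 4.36 in control EGF arrays, and 4.83 and 5.11 in unstimulated control arrays. The 2 shELL-labelled EGF arrays were the lowest and the highest of all, so the replicates of 1 group spanned every other array. CDKAL1 read 3.72 and 4.50, 4.52 and 4.48, 4.75 and 4.59, and 4.54 and 5.09 in the same order of groups. All 4 shELL-labelled arrays lay below all 4 control arrays for CDKAL1, though the closest pair nearly touched. The averaged difference was -0.44 (SE 0.25), with limma adjusted p = 0.9999. The lowest value, 3.72, was that of array 1 of the shELL-labelled EGF group, and the difference without that array was not computed.

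Among the 35 genes above background without a dominant gap, the range over the 8 arrays ran from 0.383 to 1.70 with a median of 0.872. Array 1 of the shELL-labelled EGF group gave the lowest value in 12 of these 35 and the highest in 3. Among the 147 genes below background it gave the highest value in 67 (45.6%). That array, which also had the highest background, thus read highest in many low genes. For a chosen set of named differences, values without it are given below where leaving it out moved them by over 1.5 times. The differences of CDKAL1 and PTPRK were not in that set.

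**Figure D2:**
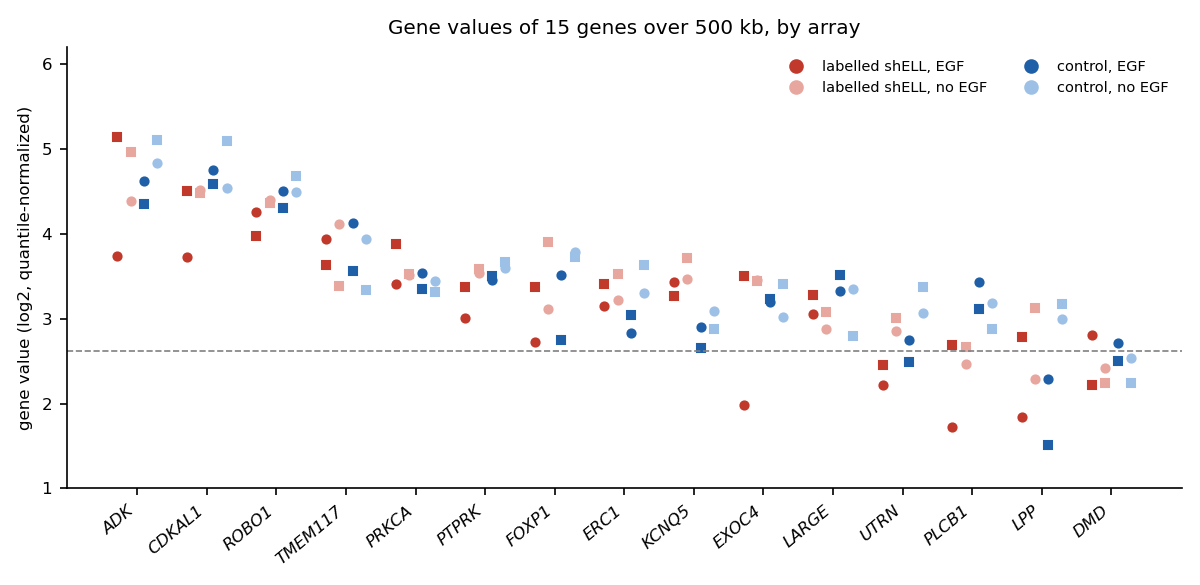
Gene values (log2, quantile-normalized, vertical axis) of 15 genes over 500 kb without a dominant gap, 1 point per array (circles replicate 1, squares replicate 2), coloured by group. The dashed line is the gene background of 2.62. ADK spans 3.73 to 5.13 within the shELL-labelled EGF group alone.

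The first comparison asked how long genes read after 1 h of EGF. No gene over 500 kb passed adjusted p under 0.05 for gene value in control cells, in shELL-labelled cells or on average over both, and over all 16145 genes 1 gene passed in each of these comparisons (0.00619%), EGR1, which is no member. At an unadjusted p under 0.05, 6 of 226 members (2.65%) passed in control cells against 2.69% of all genes, 2 (0.885%) in shELL-labelled cells against 2.47%, and 7 (3.10%) on average against 3.17%. The members' shares were thus at or under the background. Without genes with a dominant gap, 4 of 182 passed in control cells, 2 in shELL-labelled cells and 4 on average. The median difference over the 226 members was 0.17 in control cells, 0.02 in shELL-labelled cells and 0.10 on average, against 0.07, 0.00 and 0.05 over all genes. In bulk RNA, a lower signal from fewer cells that use a gene and from less RNA per cell cannot be told apart.

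UTRN had the smallest p of any member for EGF on average. It read 2.22 and 2.46 in shELL-labelled EGF arrays against 2.85 and 3.01 in unstimulated shELL-labelled arrays, and 2.75 and 2.49 in control EGF arrays against 3.07 and 3.38 in unstimulated control arrays. All 4 EGF arrays lay below all 4 unstimulated arrays, with means of 2.48 ± 0.22 and 3.08 ± 0.22 (SD, n = 4 each). In each EGF array UTRN lay under that array's own background, which was 4.23, 2.48, 3.055 and 3.47 in the order given. Of the unstimulated arrays, only array 1 of the shELL-labelled group read UTRN under its own background, 3.43. The difference was -0.59 (SE 0.21, limma unadjusted p = 0.0180, adjusted p = 0.901), and it was -0.59 in shELL-labelled and -0.60 in control cells. Median polish over the 7 arrays that remain when 1 is left out gave smaller differences whichever it was, between -0.44 and -0.30. By the mean of the probe sets the difference was -0.50, and between -0.61 and -0.38 with 1 array left out.

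Groups that did not overlap, all 4 EGF arrays on 1 side of all 4 unstimulated arrays, were seen with EGF lower in 6 members (2.65%) against 1.13% of all genes and with EGF higher in 3 (1.33%) against 1.58%. The 6 were UTRN, PTPRK, AGAP1, NLGN1 and, among genes with a dominant gap, NBPF15 and RGPD3, and the 3 were GRM8, DACH2 and KCNMA1. Of these, AGAP1, NLGN1 and KCNMA1 were named after their values were seen. PTPRK, a receptor tyrosine phosphatase, read 3.01 and 3.37 with EGF against 3.54 and 3.59 without in shELL-labelled cells, and 3.45 and 3.51 against 3.59 and 3.67 in control cells, a difference of -0.26 (SE 0.20, unadjusted p = 0.216). Its lowest value, 3.01, was that of array 1 of the shELL-labelled EGF group, and the difference without that array was not computed. GRM8, a glutamate receptor, read between 1.25 and 2.47 with EGF and between 0.99 and 1.19 without, and DACH2, a transcription cofactor, between 1.45 and 2.86 and between 1.03 and 1.38. Of these values only 2.86 lay above the gene background of 2.62, and it lay under its own array's background of 4.23. In both genes the highest value was that of array 1 of the shELL-labelled EGF group.

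LPP, a focal adhesion protein that also enters the nucleus, had the smallest p in control cells, with a mean of 2.50 that lies under background. It read 2.29 and 1.52 with EGF against 3.0 and 3.17 without in control cells, a difference of -1.18 (SE 0.44, unadjusted p = 0.0250, adjusted p = 0.996). Without control EGF array 2 it was -0.65, and likewise -0.65 with only probe sets above background. In shELL-labelled cells its 1.85 and 2.78 with EGF overlapped its 2.30 and 3.13 without. C7orf10 read 3.13 and 2.22 with EGF against 1.94 and 1.22 without in control cells, a difference of 1.09 (SE 0.44, unadjusted p = 0.0338), or 0.46 with no filter on low values.

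The second comparison set the arrays labelled shELL against control arrays, and its directions rest on a label that ELL could not check. No member passed adjusted p under 0.05 for gene value without EGF, with EGF or on average, where 0% of all genes passed. At an unadjusted p under 0.05, 0 of 226 members passed without EGF against 1.28% of all genes, 4 (1.77%) with EGF against 3.17%, and 4 (1.77%) on average against 2.64%. Without genes with a dominant gap, 0, 2 and 3 of 182 passed. The median difference over the 226 members was 0.08, -0.03 and 0.02 in these comparisons, against 0.03, -0.04 and 0.00 over all genes. Groups did not overlap in 1 member with the shELL-labelled arrays higher (0.442%, KCNQ5) against 1.11% of all genes, and in 2 with them lower (0.885%, PLCB1 and CDKAL1) against 1.47%.

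PLCB1, a phospholipase C that relays signals of G protein-coupled receptors, read 1.73 and 2.69 with EGF and 2.47 and 2.66 without in arrays labelled shELL, against 3.43 and 3.11 with EGF and 3.19 and 2.88 without in control arrays. Means were 2.39 ± 0.45 and 3.15 ± 0.23 (SD, n = 4 each). The difference was -0.76 (SE 0.26, limma unadjusted p = 0.0169, adjusted p = 0.9999). It was -0.43 without array 1 of the shELL-labelled EGF group, -0.49 without control EGF array 1 and -0.40 on the values as deposited. By the mean of the probe sets it was -0.62, and between -0.78 and -0.46 with 1 array left out. KCNQ5, a potassium channel subunit, read 3.44 and 3.27 with EGF and 3.46 and 3.71 without in arrays labelled shELL, against 2.91 and 2.66 with EGF and 3.09 and 2.88 without in control arrays. Means were 3.47 ± 0.18 and 2.88 ± 0.18 (SD, n = 4 each). The difference was 0.59 (SE 0.20, limma unadjusted p = 0.0177, adjusted p = 0.9999). With 1 array left out, median polish gave smaller values whichever it was, between 0.19 and 0.51. By the mean of the probe sets it was 0.41, and between 0.35 and 0.47 with 1 array left out.

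NKAIN2, a partner of the sodium pump, PCDH9, a protocadherin, and RBFOX1, a splicing factor, also had small p-values, with differences of -0.59, -0.56 and 0.64 and unadjusted p between 0.0362 and 0.0628. Without shELL-labelled EGF array 2 the difference was -0.03 for NKAIN2 and -0.09 for PCDH9, and with no filter on low values it was 0.14 for RBFOX1. For the interaction, which is the EGF difference in shELL-labelled cells minus that in control cells, 0% of all genes passed adjusted p under 0.05. At an unadjusted p under 0.05, 3 members (1.33%) passed against 1.73% of all genes. They were IGHG4 (-1.89), IL1RAPL1 (-1.23) and GPC5 (-1.20), and only IGHG4 with EGF in control cells had a group mean above background. The interaction was -1.01 for IGHG4 without array 1 of the shELL-labelled EGF group, -0.76 for GPC5 without control EGF array 2 and -0.36 for IL1RAPL1 with no filter.

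The central test was position along the gene. A slope was fitted in each array to the log2 values of a gene's probe sets above background, each minus its mean over the 8 arrays, against position from 0 at the 5' end to 1 at the 3' end. A slope is thus the difference on the log2 scale between the 3' and the 5' end, relative to the other arrays. A gene needed at least 5 such probe sets over at least 50% of its span, which 115 members (88 without a dominant gap) and 8402 genes of any span met. No slope of a member passed adjusted p under 0.05 in any of the 7 comparisons, in each of which 0% of all genes passed.

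At an unadjusted p under 0.05, EGF slopes passed in 4 of 115 members (3.48%) in control cells against 3.02% of all genes, in 2 (1.74%) in shELL-labelled cells against 2.48% and in 1 (0.870%) on average against 3.19%. For arrays labelled shELL against control, 1 member (0.870%) passed without EGF against 0.964% of all genes, 3 (2.61%) with EGF against 4.36% and 2 (1.74%) on average against 2.52%, and for the interaction 2 (1.74%) against 2.64%. Of the 4 in control cells, 3 had no dominant gap, and in the other comparisons all had none. Slopes did not overlap between EGF and unstimulated arrays in 0 members with EGF higher against 1.05% of all genes and in 1 member, CDK14, with EGF lower (0.870%) against 1.54%. Between shELL-labelled and control arrays they did not overlap in 0 members either way, against 1.01% (higher) and 1.12% (lower) of all genes. Long genes were thus called for position no more often than genes of any span at the same threshold, apart from EGF in control cells, where the 4 members lay near the background.

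The median slope difference under EGF was -0.03 in control cells, 0.13 in shELL-labelled cells and 0.08 on average over the 115 members, against -0.13, -0.04 and -0.08 over all genes. Without the genes with a dominant gap it was -0.12, 0.16 and 0.14. For arrays labelled shELL against control it was -0.14 without EGF, 0.15 with EGF and 0.06 on average, against -0.07, 0.02 and -0.03 over all genes, and the median interaction was 0.25 against 0.07. The pooled SD between replicates of an array's median slope, each gene centred on its mean, was 0.11, and these medians carry no test.

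Array medians showed the same spread. Over the 115 members the median slope was 0.13 and 0.04 in shELL-labelled EGF arrays, -0.08 and -0.09 in unstimulated shELL-labelled arrays, 0.10 and -0.14 in control EGF arrays, and 0.05 and -0.09 in unstimulated control arrays. In control cells the EGF arrays overlapped the unstimulated ones, and in shELL-labelled cells they lay above both of them. Over genes under 50 kb the same medians were -0.13 and 0.05, -0.01 and 0.06, 0.01 and -0.15, and 0.02 and 0.12, with overlap in shELL-labelled cells and no overlap in control cells. A lower slope at the 3' end after EGF in long genes than in short ones was therefore not seen in these medians.

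**Figure D3:**
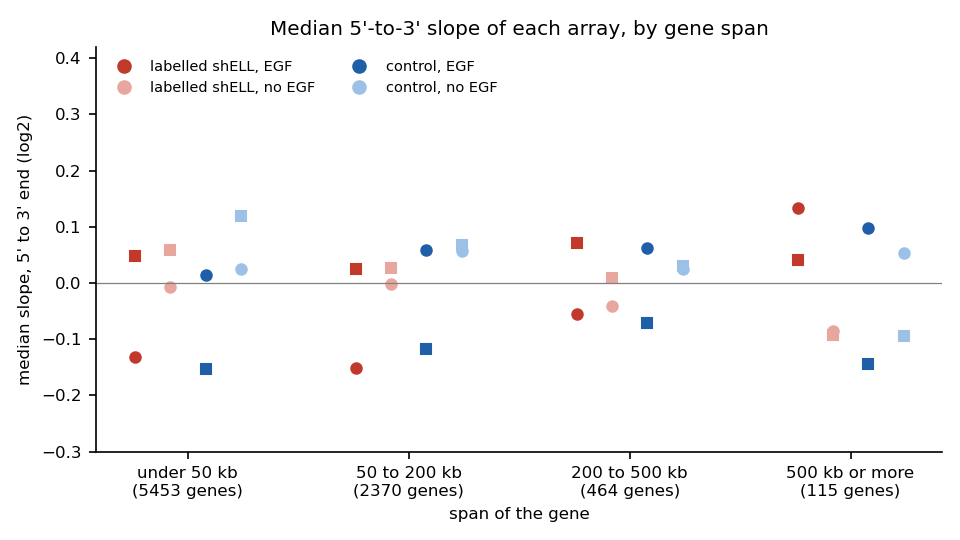
Median slope from the 5' to the 3' end (log2, vertical axis) of each array for genes of 4 span classes (horizontal axis), 1 point per array (circles replicate 1, squares replicate 2), coloured by group. In genes of 500 kb or more the array medians lie between -0.14 and 0.13, and the replicates of the control EGF group lie at 0.10 and -0.14.

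Between the near and the far end, distance in kb gave the same picture. For each array, the centred values of a member's probe sets were averaged within 6 classes of distance from the 5' end and then over genes. In control cells the EGF difference was 0.11 within 50 kb (99 genes), -0.13 from 50 to 100 kb (21 genes), -0.09 from 100 to 200 kb (41 genes), 0.05 from 200 to 300 kb (42 genes), 0.16 from 300 to 500 kb (65 genes) and 0.05 beyond 500 kb (110 genes). In shELL-labelled cells it was -0.03, -0.21, -0.25, -0.12, -0.02 and 0.03 in the same order. The spread of replicates within groups was between 0.12 and 0.22 (pooled SD) in these classes. Beyond 500 kb minus within 50 kb, the EGF difference was -0.05 in control cells and 0.06 in shELL-labelled cells, both under the replicate SD of 0.12. Between these classes, a drop after EGF was thus not detectable at this precision, which does not show that it is absent. From 50 to 200 kb the EGF difference lay below that within 50 kb in both lines. Averaged over lines it was -0.17 from 50 to 100 kb and -0.17 from 100 to 200 kb, against 0.04 within 50 kb. That contrast was not tested, and the classes do not hold the same genes. Taken beyond 500 kb minus within 50 kb, the shELL-labelled minus control difference was -0.11 without EGF, 0.005 with EGF and -0.05 on average. The interaction was 0.11, and each of these values was smaller in size than the replicate SD.

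**Figure D4:**
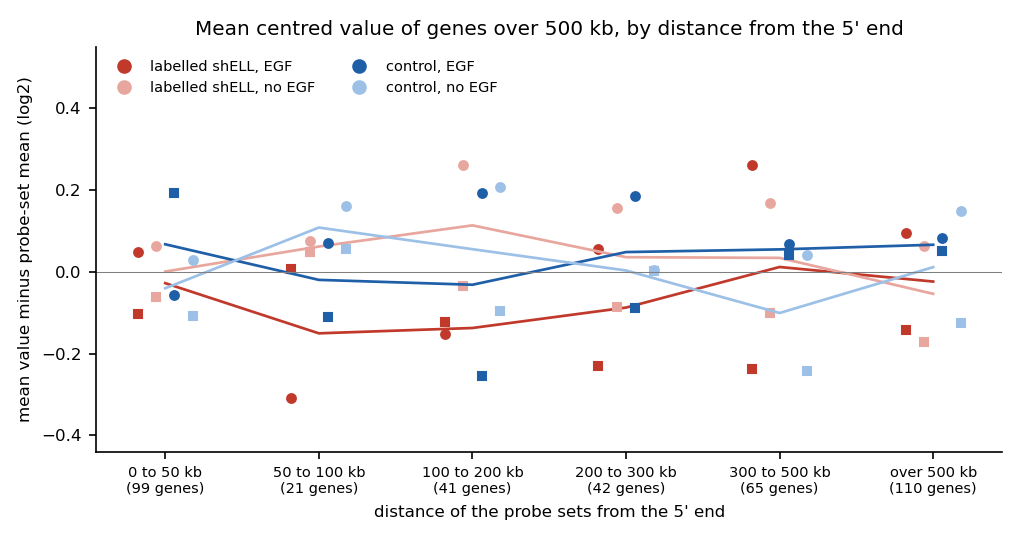
Mean log2 value of the probe sets of genes over 500 kb, each minus its own mean over the 8 arrays (vertical axis), by distance from the 5' end (horizontal axis). Points are arrays (circles replicate 1, squares replicate 2) and lines join group means. Beyond 500 kb the 8 arrays lie between -0.17 and 0.15 and the groups overlap.

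CDK14, a cyclin-dependent kinase of the cell membrane and Wnt signalling, had the smallest p of any member for slope under EGF. Its slope was 0.13 and -0.64 in shELL-labelled EGF arrays against 1.88 and 0.95 in unstimulated shELL-labelled arrays, and -1.27 and -2.11 in control EGF arrays against 0.69 and 0.36 in unstimulated control arrays. All 4 EGF arrays lay below all 4 unstimulated arrays. The difference was -1.94 (SE 0.53, 95% interval from -3.12 to -0.76, limma unadjusted p = 0.00466, adjusted p = 0.942), -1.67 in shELL-labelled and -2.21 in control cells. Without unstimulated shELL-labelled array 2 it was -3.05 on average and -3.19 in shELL-labelled cells, where it was -0.99 without shELL-labelled EGF array 2.

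The slope of CDK14 rested on 11 probe sets of a gene of 613985 bases on chromosome 7. The first 3, all within 0.119 kb of the 5' end, averaged 4.0 and 4.30 with EGF against 2.85 and 4.07 without in shELL-labelled cells, and 4.56 and 4.76 against 3.70 and 4.14 in control cells. The last 3, between 449.4 and 521.6 kb, averaged 2.67 and 2.65 with EGF against 3.33 and 3.76 without in shELL-labelled cells, and 1.80 and 1.77 against 3.14 and 3.33 in control cells. The 5' end was thus higher with EGF in control arrays and the 3' end lower with EGF in both lines, without overlap. Of the EGF arrays, only shELL-labelled array 2 read the last 3 above its own background, 2.48. Of the unstimulated arrays, only shELL-labelled array 1 read them under it, 3.43. In control cells they averaged under the filter of 2.49 with EGF and over it without. They thus entered the slope in part through the unstimulated arrays, which the p-value does not allow for. The gene value of CDK14 overlapped between the groups, at 2.78 and 2.39 with EGF against 2.41 and 2.72 without in shELL-labelled cells and 2.29 and 2.63 against 2.42 and 2.42 in control cells. With the lower filter on probe sets, the 25th percentile of all, the difference was -0.93 (unadjusted p = 0.0828) on average and -0.69 in control cells.

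SBF2, a regulator of membrane lipids and Rab proteins, went the other way in control cells. Its slope was 0.75 and 2.36 in control EGF arrays against -0.52 and -1.44 in unstimulated control arrays, a difference of 2.54 (SE 0.79, unadjusted p = 0.00995, adjusted p = 0.990), or 1.64 without unstimulated control array 2. In shELL-labelled cells it was -0.48 and -0.29 with EGF against -0.33 and -0.05 without, and these overlapped. The interaction was -2.74 (SE 1.12, unadjusted p = 0.0355, adjusted p = 0.9998), or -1.62 without the same array and -1.45 from the end parts of the gene. NRXN3, a neurexin of synapses, had slopes of -1.94 and -0.54 with EGF against 0.39 and 1.81 without in shELL-labelled cells, a difference of -2.34 (SE 0.81, unadjusted p = 0.0167), and 0.22 and -0.05 against 0.15 and -0.03 in control cells. Without control EGF array 2 the difference in shELL-labelled cells was -1.20, and with the lower filter it was -1.14. Leaving out an array also reset the filter on probe sets, so a control array can change this difference through the probe sets chosen. The slope of NRXN3 rested on 7 probe sets, and none of them lay nearer than 323.1 kb to the 5' end.

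ASTN2, a neural migration protein, and CTNND2, a catenin, had slope differences under EGF of 1.69 and 1.06 on average over both lines, and their slopes in array 1 of the shELL-labelled EGF group, 3.24 and 1.47, were the highest of the 8 for both genes. Without that array the differences were 0.84 for ASTN2 and 0.13 for CTNND2, and without the other array of its group they were 2.82 and 1.63.

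For arrays labelled shELL against control, ATRNL1 had the smallest p on average. Its slope was -2.85 and 0.42 with EGF and -1.45 and -0.07 without in arrays labelled shELL, against 2.52 and 0.94 with EGF and 0.05 and 0.45 without in control arrays. The difference was -1.98 (SE 0.79, unadjusted p = 0.0324, adjusted p = 0.999). It was -0.88 without array 1 of the shELL-labelled EGF group and -0.42 with the lower filter. Of its 13 probe sets, 12 lay in the 5' part of the gene and 1 at 633.6 kb, far from the rest. PTPRT, a receptor tyrosine phosphatase, had -0.26 and -1.05 with EGF and -0.42 and -0.85 without in arrays labelled shELL, against 0.87 and 1.47 with EGF and 0.67 and -0.44 without in control arrays, a difference of -1.29 (SE 0.53, unadjusted p = 0.0371), or -0.41 with the lower filter. CSMD3, a membrane protein of the complement-control family, had the smallest p without EGF, 2.38 and 0.35 in arrays labelled shELL against -0.60 and -0.85 in control arrays, a difference of 2.09 (SE 0.84, unadjusted p = 0.0330). Without unstimulated shELL-labelled array 1 it was 0.93.

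**Figure D5:**
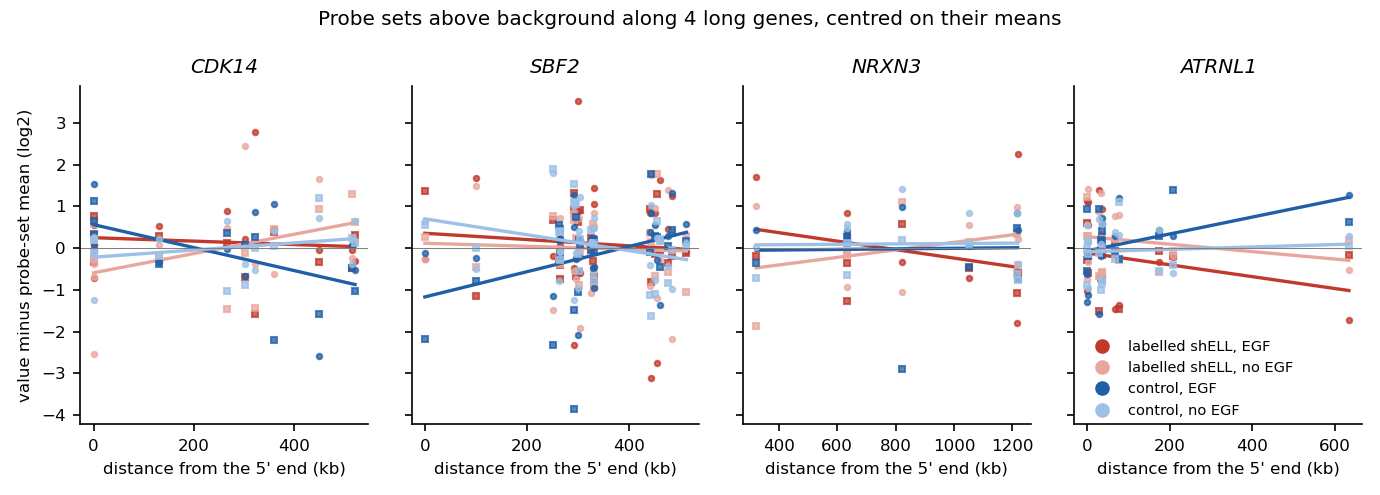
Log2 value of each probe set in the slope, minus its mean over the 8 arrays (vertical axis), against distance from the 5' end in kb (horizontal axis) for CDK14, SBF2, NRXN3 and ATRNL1. Points are arrays (circles replicate 1, squares replicate 2) and lines are least-squares fits to the mean of each group. The EGF line of control cells falls along CDK14 and climbs along SBF2, and single points lie up to several log2 units from the lines.

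Single probe sets were tested over 211764 probe sets of the array, 4205 of them of members, and 0% passed adjusted p under 0.05 in each of the 7 comparisons. At an unadjusted p under 0.05 in EGF comparisons, 154 probe sets of members (3.66%) passed in control cells against 3.36% of all, 117 (2.78%) in shELL-labelled cells against 2.54% and 150 (3.57%) on average against 3.22%. For arrays labelled shELL against control, 47 (1.12%) passed without EGF against 1.21%, 176 (4.19%) with EGF against 4.33% and 97 (2.31%) on average against 2.54%. For the interaction 119 (2.83%) passed against 2.59%. Every share of the members was near that of all probe sets.

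A probe set of FOXP1 at chromosome 3, 71021718 to 71021742, which lies 609.1 kb from the 5' end, had the smallest p for EGF in control cells and on average. It read 1.75 and 4.27 with EGF against 5.77 and 4.77 without in shELL-labelled cells, and 0.33 and 0.55 against 5.31 and 4.60 in control cells. The averaged difference was -3.39 (SE 0.64, unadjusted p = 0.000221, adjusted p = 0.973). A probe set of PARK2, the parkin gene, 389.4 kb from the 5' end (chromosome 6, 162475135 to 162475159), read 5.43 and 4.25 with EGF against 0.19 and 0.29 without in shELL-labelled cells, and 1.61 and 0.85 against 1.00 and 2.20 in control cells. Its difference in shELL-labelled cells was 4.60 (SE 0.79, unadjusted p = 9.91e-05, adjusted p = 1). All its other arrays lay under the background of 2.49. It thus passed the filter on low values mainly through the group where it was high, and its p-value does not allow for that. A probe set of PARD3B 0.126 kb from the 5' end read 0.29 and 2.0 with EGF and 0.19 and 2.71 without in arrays labelled shELL, against 4.29 and 4.98 with EGF and 4.29 and 4.13 without in control arrays, a difference of -3.12 (SE 0.67, unadjusted p = 0.000627, adjusted p = 0.9999).

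By role, the members were sorted into 12 lists that hold 134 of the 240 genes, and no member of any list passed adjusted p under 0.05 in any comparison. Of 28 genes of synaptic and neural adhesion, 3 lay above background, namely ROBO1, LPHN3, a latrophilin receptor, and NEGR1, a neuronal growth regulator. Over the 28 genes the median EGF difference on average was 0.21, with 23 of 28 above 0, against a median of 0.05 and 55.9% above 0 over all genes. The list's median difference was 0.05 in shELL-labelled cells, with 15 of 28 above 0, and 0.37 in control cells, with 23 of 28 above 0, and its median interaction was -0.29. The rest of the list lay under background. The background of each array read 3.055 and 3.47 with EGF against 2.77 and 2.25 without in control cells. In shELL-labelled cells it read 4.23 and 2.48 against 3.43 and 2.32. Whether low genes of any role share these differences was not tested, here or for the lists below. ROBO1 itself read 4.26 and 3.97 with EGF against 4.40 and 4.36 without in shELL-labelled cells, and 4.50 and 4.30 against 4.50 and 4.68 in control cells.

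Of 6 glutamate and other transmitter receptors with a gene value, 0 lay above background and all 6 had an averaged EGF difference above 0, with a median of 0.44. Of 7 cadherins and catenins, 0 lay above background, CDH4 being the highest at 2.59, and the median was 0.11. All 6 receptor tyrosine phosphatases had a slope, and PTPRK at 3.47, PTPRM at 3.15 and PTPRD at 2.84 lay above background, with PTPRG at 2.50 under it. Their median EGF difference was 0.01, and PTPRG read between 2.43 and 2.66 in all 8 arrays.

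Of 8 scaffolds, ERC1 at 3.26 lay above background and the median EGF difference was 0.04. Of 5 genes of the cytoskeleton and dystrophin complex, UTRN at 2.78 lay above it, and the median was -0.30 with 2 of 5 above 0. Of 9 ion channels, exchangers and their subunits, KCNQ5 at 3.18 lay above it, and the median was 0.17 with 8 of 9 above 0. Of 19 signalling genes, 4 lay above background, PRKCA, a protein kinase C, at 3.50, DOCK1, an activator of Rac, at 2.89, PLCB1 at 2.77 and ELMO1, the partner of DOCK1, at 2.63, and the median was 0.10.

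Of 13 regulators of transcription and chromatin, FOXP1 at 3.36 and AUTS2 at 2.68 lay above background, and the median EGF difference was 0.14. RBFOX1 at 2.81 was the 1 of 3 RNA-binding proteins above it. Of 15 genes of common fragile sites, regions that break under replication stress, FHIT at 3.0 and WWOX at 2.92 lay above it, and the median was 0.25 with 13 of 15 above 0. Of 20 genes of trafficking, ubiquitin and housekeeping roles, 7 lay above it, with TMEM117 at 3.76, LARGE, a glycosyltransferase, at 3.16 and EXOC4 at 3.16 among them, and the median was -0.05 with 7 of 20 above 0. For arrays labelled shELL against control, the medians of the 12 lists lay between -0.08 and 0.27.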

How the data were processed

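Total RNA of 8 arrays in 4 groups of 2 was analysed. The authors deposited log2 probe-set values made with Affymetrix Expression Console and RMA, per the submitters' processing notes, with versions not given in the sources used here, and a file of their group means on the log2 scale with symbols and positions, which matched the array values within 5.0e-05. Of the probe sets, 280649 had 1 symbol, 35 several and 6645 none. Gene names were updated through RefSeq (222 of 240 current, 16 synonyms, 2 unmatched).

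Values were quantile-normalized between arrays, since array medians differed. Probe sets with a mean at or above the 25th percentile were tested, and slopes used those whose mean exceeded the 95th percentile of the olfactory receptor background. Gene values are median polish of at least 3 probe sets, with at most 10 iterations. limma 3.58.1 in R 4.3.3 (with the package data.table, version 1.17.8) was fitted to 4 group means over all 8 arrays and all features, with 4 residual degrees of freedom and Benjamini-Hochberg adjustment at 0.05 within each of 7 comparisons; p-values are two-sided. Figures were drawn with matplotlib in Python. The procedures were tested on simulated data. The number of arrays limits the precision. The labels call the second array of each group a biological replicate and do not say how its cells were grown apart from the first.

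The members and lists were chosen with earlier results of these data known. Genes were named by a rule: the 15 of highest gene value with a slope, those of smallest p per comparison for slope, gene value and probe set, up to 4 of highest value per role list, and the genes at the ends of the span rule. Of the genes this rule names, 1 is not reported here. Alternatives were the values as deposited, median centring, other filters, positions by rank, slopes from the end parts of a gene, at least 10 probe sets, spans of 250000 or 1000000 bases, gene means, array weights, only the groups compared, a variance trend, the replicate number as a block, each array left out and, chosen after seeing the data, genes without a dominant gap and, for 3 genes, probe-set means with each array left out. Where an array was left out of a fit, the filters on probe sets were set again on the arrays that remained.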

Additional observations from a re-analysis of the deposited data

Results flagged for a closer look

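In 7 results of named genes, both arrays of a group lay on 1 side of their comparison arrays in 1 line or state and on the opposite side in the other. The p-values of the interaction are limma's unadjusted values, and no adjusted p was under 0.05. Of these, 3 concerned gene values in which EGF arrays lay on opposite sides in the 2 lines: GPC5, with an interaction of -1.20 (unadjusted p = 0.0328), IGHG4 at -1.89 (unadjusted p = 0.0127) and AAA1 at -1.25 (unadjusted p = 0.116). IL1RAPL1 had an interaction of -1.23 (unadjusted p = 0.0325), with shELL-labelled arrays below control arrays under EGF and above them without.

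Slopes lay on opposite sides under EGF in the 2 lines for PTPRM at 2.24 (unadjusted p = 0.0555). They did so between shELL-labelled and control arrays, with and without EGF, for NRXN3 at -2.37 (unadjusted p = 0.0664) and SBF2 at -2.74 (unadjusted p = 0.0355). PTPRM had slopes of 1.19 and 0.37 with EGF against -0.89 and -0.25 without in shELL-labelled cells, and -0.17 and -0.93 against 0.45 and 0.23 in control cells. These genes were named for small p-values, so such patterns are likelier among them than among all genes. AAA1, IL1RAPL1 and GPC5 had every group mean under background, and IGHG4 all but that of control cells with EGF.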

How the results depend on the processing

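No probe set, gene value or slope of a member passed adjusted p under 0.05 under any of 467 alternatives to those counts. The 60 results of named genes kept their sign under all 949 of their alternatives, none reached adjusted p under 0.05, and the lowest was 0.0953 (limma, DACH2, GRM8 and IGHG4 without shELL-labelled EGF array 2). Most of these results were named for small p-values. Array weights, the replicate block and the variance trend leave a difference itself unchanged, so kept signs were likely in advance. Whether replicate numbers pair the samples was not settled. Correlations of same-numbered deviations ran from 0.373 to 0.512 among the unstimulated control and both shELL-labelled groups. Between control cells with EGF and those groups they ran from -0.314 to -0.164. Under the replicate block 0 members were called. Medians over members, which carry no test, moved by more than the replicate SD in 83 of 448 alternatives, and the cause was not tested.

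For median gene-value differences, the values as deposited gave -0.571 for EGF in shELL-labelled cells, -0.246 for EGF on average, 0.461 for shELL-labelled against control without EGF and -0.634 for the interaction, and median centring gave -0.227 with EGF and -0.410 for the interaction. For median slope differences, the values as deposited and median centring both gave 0.0846 for EGF in control cells, -0.0531 for shELL-labelled against control on average and 0.128 for the interaction. The lower filter on probe sets gave 0.0252 for EGF in shELL-labelled cells, -0.00268 for shELL-labelled against control without EGF, -0.0910 with EGF and 0.0272 for the interaction. At least 10 probe sets gave 0.00185 with EGF and 0.110 for the interaction, position by rank -0.0683 for shELL-labelled against control on average, and a span of at least 250000 bases 0.0731 for the interaction. A span of at least 1000000 bases gave 0.201 for EGF in control cells, -0.0522 for EGF in shELL-labelled cells, 0.00129 for shELL-labelled against control without EGF, -0.216 with EGF and -0.228 for the interaction, and genes without a dominant gap gave 0.277 with EGF and 0.380 for the interaction.

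For the difference beyond 500 kb minus that within 50 kb, at least 10 probe sets gave -0.110 for EGF in shELL-labelled cells, -0.175 for shELL-labelled against control with EGF and -0.0953 for the interaction. A span of at least 1000000 bases gave -0.223 for EGF in shELL-labelled cells, -0.158 for EGF on average, 0.0447 for shELL-labelled against control without EGF and -0.130 for the interaction, and the values as deposited and median centring gave 0.242 for the interaction.

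With each array left out, over all members and over those without a dominant gap, median slope differences ran from -0.224 to 0.138 for EGF in control cells, 0.0806 to 0.443 in shELL-labelled cells and -0.0619 to 0.277 on average, from -0.178 to -0.00865 for shELL-labelled against control without EGF, 0.0537 to 0.629 with EGF and -0.000759 to 0.175 on average, and from -0.00161 to 0.462 for the interaction. The far minus near difference ran from -0.232 to 0.125, 0.00367 to 0.257 and -0.0629 to 0.143 for EGF in control cells, in shELL-labelled cells and on average, from -0.126 to 0.222 for shELL-labelled against control with EGF, and from -0.000361 to 0.367 for the interaction. For shELL-labelled against control it ran from -0.223 to -0.0330 without EGF, below 0 whichever array was left out, and from -0.144 to 0.0381 on average. The median gene-value interaction ran from -0.270 to 0.120. With 2 arrays per group, a background between 2.25 and 4.23 and 26.9% of the members' probe sets above it, signal over background limits what can be seen.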
